A study of Rattus norvegicus with 16 samples.

Results

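TRP and acid-sensing channels are the ion channels through which sensory neurons detect heat, cold, irritant chemicals and acid, and 7 of their genes were sought in L4/L5 dorsal root ganglia (DRG) of the rat: Trpv1, Trpv2, Trpa1, Trpm8, Asic1, Asic2 and Asic3. Members were all array probe sets, called Affy_IDs, for which the annotation listed one of these symbols and no other gene. They came to 12 of the 31042 Affy_IDs tested and covered 6 of the 7 genes, since no Affy_ID was listed for Trpa1 alone. Trpv1 had 3 Affy_IDs, Asic1 had 4, Asic2 had 2, and Trpv2, Trpm8 and Asic3 had 1 each. A further Affy_ID listed for both Trpv1 and Trpv4 was not used.

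Messenger RNA was measured on 16 Affymetrix rat genome arrays, each carrying RNA pooled from several Sprague-Dawley rats 7 days after surgery. In spared nerve injury (SNI) the common peroneal and tibial branches of the sciatic nerve were tied and cut and the sural branch was left whole, whereas sham operations exposed the nerve and did no more. Adult rats were males of 2 months, with 3 rats (6 DRG) to a pool, and the groups were adult sham, adult contralateral (the uninjured side of rats with SNI) and adult SNI (the injured side), with 3 arrays each. Young rats were 10 days old at surgery and 17 days at collection, with 4 rats (8 DRG) to a pool, and the groups were young sham with 3 arrays, young contralateral with 2 and young SNI with 2. The pools held whole ganglia, in which some neurons had cut axons and others did not, so a change in the injured neurons is mixed with the level in their neighbours. Fewer cells of a type and less RNA per cell cannot be told apart in such pools, and the spread between arrays is a spread between pools.

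Trpv1 encodes the receptor for capsaicin, noxious heat and protons, and marks many small peptide-containing nociceptors. Trpv2 is a relative of it found mainly in larger myelinated neurons, Trpm8 is the receptor for cold and menthol, and Trpa1 is the receptor for mustard oil and other irritants. The ASIC subunits belong to the degenerin and epithelial sodium channel family, assemble as trimers and open when the outside of the cell turns acid. Asic1 and Asic3 form sensitive proton-gated channels, Asic3 being the main one of muscle and heart afferents, and Asic2 mostly modifies the channels it joins. The genes lie apart in the rat genome (GRCr8): Trpv1, Trpv2 and Asic2 on chromosome 10, Asic1 on chromosome 7, Trpm8 on chromosome 9 and Asic3 on chromosome 4. Asic2 is much the longest, spanning 1069930 bases, against 25086 for Trpv1 and 4470 for Asic3.

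The promoters of 3 genes are printed because each had at least 1 Affy_ID whose adult SNI arrays all lay below the adult controls. They are RefSeq sequences of build GRCr8 in the direction of transcription, from 250 bases before to 50 after a start, with capitals on letters that matched 1 of 5 short motifs on either strand. The motifs were TGTGGT (bound by RUNX factors), TGACGTCA (the cAMP response element), TGANTCA (the AP-1 site, bound by Jun and Atf3 dimers), GGGCGG (the GC box) and TATAAA (the TATA box). Asic2 has 2 starts far apart, and the annotation used here does not say which start an Affy_ID reads. The Asic1 window lies inside the span of its gene, which begins at base 132677158, so it is not at the outer end of that gene.
Trpv1 (chr10:58349686-58349985, plus strand): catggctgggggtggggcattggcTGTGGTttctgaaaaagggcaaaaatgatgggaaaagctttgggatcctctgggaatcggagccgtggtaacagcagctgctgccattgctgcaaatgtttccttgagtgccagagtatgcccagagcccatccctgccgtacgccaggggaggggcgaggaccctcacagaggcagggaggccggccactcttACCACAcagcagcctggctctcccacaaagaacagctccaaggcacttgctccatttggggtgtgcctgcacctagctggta
Asic1 (chr7:132678457-132678756, plus strand): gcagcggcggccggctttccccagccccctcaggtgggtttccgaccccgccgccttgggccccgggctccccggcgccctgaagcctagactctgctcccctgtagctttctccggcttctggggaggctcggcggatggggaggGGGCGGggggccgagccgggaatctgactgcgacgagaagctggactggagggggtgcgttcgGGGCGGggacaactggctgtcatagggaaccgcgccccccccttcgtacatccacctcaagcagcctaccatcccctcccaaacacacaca
Asic2, upstream start (chr10:67438188-67438487, minus strand): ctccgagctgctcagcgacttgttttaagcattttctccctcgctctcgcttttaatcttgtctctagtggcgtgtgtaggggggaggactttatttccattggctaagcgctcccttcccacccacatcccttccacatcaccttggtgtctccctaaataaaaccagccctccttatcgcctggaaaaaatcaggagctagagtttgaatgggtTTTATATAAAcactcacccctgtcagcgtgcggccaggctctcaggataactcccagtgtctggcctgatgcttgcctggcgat
Asic2, downstream start (chr10:66636012-66636311, minus strand): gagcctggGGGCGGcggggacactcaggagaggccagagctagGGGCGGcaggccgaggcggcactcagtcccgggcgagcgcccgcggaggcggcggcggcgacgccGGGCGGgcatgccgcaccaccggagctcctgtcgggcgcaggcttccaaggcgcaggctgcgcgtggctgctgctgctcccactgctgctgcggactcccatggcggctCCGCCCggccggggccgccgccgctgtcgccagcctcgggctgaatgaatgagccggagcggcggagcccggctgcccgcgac
Trpv1 held the RUNX motif at 2 places, a motif found in 17.3% of all 33469 promoters of this length. The Asic1 promoter held 2 GC boxes and the downstream Asic2 promoter 4, a motif present in 33.1% of all promoters. At the upstream Asic2 start the TATA motif matched on both strands at 1 overlapping place, and 14.2% of promoters held it. None of the 4 windows held the AP-1 or the full cAMP response element, which were in 7.3% and 1.8% of promoters. GC content was 58.3% for Trpv1, 69.7% for Asic1, 51.0% for the upstream and 78.0% for the downstream Asic2 window. These are matches of letters and not sites of binding.

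Values are log2 units after GC-RMA, a background correction that uses the GC content of each probe. Different probes bind with different strength, so levels were compared between groups for 1 Affy_ID and never between genes. Of the 12 Affy_IDs, 10 had a mean above 5. The other 2 were dim in every array, Trpv1 1370685_at and Asic1 1387555_at, and passed no test.

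Before any comparison, some young arrays need description. Young SNI replicate 2 carried transcripts of central nervous tissue: the mean of 15 genes of central neurons and glia was 8.48 there and 3.33 to 3.85 in the other 15 arrays. Its mean over 14 nociceptor genes was 8.03, against 9.46 to 10.10 elsewhere, and over 12 general sensory neuron genes 11.76, against 12.36 to 12.74. It was the lowest of the 16 arrays for 8 of the 12 channel Affy_IDs, compared with 17.7% of all Affy_IDs, and lay over 1 log2 unit below every other array for 3, compared with 1.74%. The 4 for which it was not lowest were both Asic2 Affy_IDs and the 2 dim ones. Genes that rise in injured sensory neurons did not separate the young groups either. Over 20 such genes the mean of young sham arrays was 9.0, 10.03 and 7.77, that of young contralateral arrays 8.83 and 6.58, and that of young SNI arrays 8.04 and 9.59. Atf3, a transcription factor induced by axon injury, had 11 in young sham replicate 2 and 7.77 in young SNI replicate 1. In adults the same list lay at 10.34 to 10.61 in SNI and 6.59 to 7.41 in controls. Xist, transcribed in females, was between 2.32 and 2.57 in the adult arrays and above 9 in 5 of the 7 young arrays. It was low in young sham replicate 2 (2.36) and young contralateral replicate 1 (2.35), and high in both young SNI arrays (11.84 and 12.05). Age and sex of the pools thus cannot be told apart at all between adult SNI and young SNI, nor in full in other comparisons of the ages. Young SNI and young controls were also unlike in sex. The part of these features in the channel values was not tested, and results are given with and without young SNI replicate 2.

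**Figure D1:**
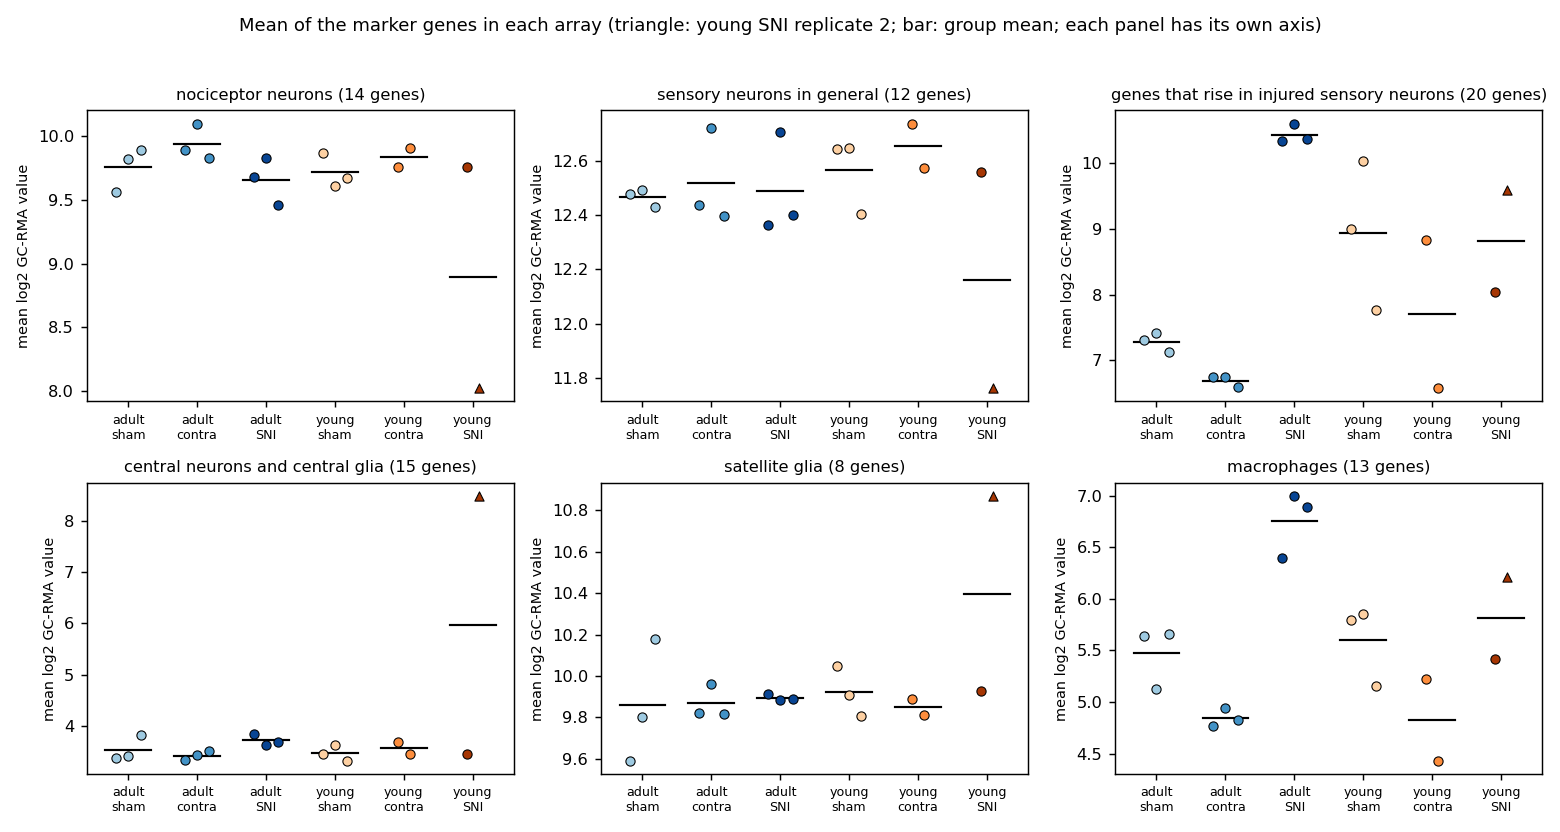
Mean log2 GC-RMA value of 6 marker lists (vertical axis, a scale for each panel) in each array, by group (horizontal axis). Each point is 1 array, the triangle is young SNI replicate 2 and the bar is the group mean; the triangle lies at 8.03 in the nociceptor panel and 8.48 in the central tissue panel, apart from all other arrays.

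The first question was whether SNI changed the channels in adult ganglia. Asic2 was lower on the injured side, by 2.17-fold for 1 of its 2 Affy_IDs, and the other Asic2 Affy_ID, both readable Trpv1 Affy_IDs and 2 of the 3 readable Asic1 Affy_IDs had lower means by 1.51- to 1.67-fold without passing the test over all 16 arrays. The third Asic1 Affy_ID was lower by 1.13-fold. Trpv2 lay the other way, and Asic3 showed no difference beyond the spread of the arrays. Trpm8 in SNI overlapped sham and lay below contralateral, without passing. Against the mean of both controls 1 of 12 Affy_IDs passed at an adjusted p under 0.05 (limma, Benjamini-Hochberg), compared with 1.28% of all Affy_IDs and 0.177% in the lower direction. The estimate was below 0 for 10 of the 12, with a median log2 difference of -0.46 for the channels and -0.03 for all Affy_IDs. Without the 2 dim Affy_IDs, both of them close to 0, it was below 0 for 8 of 10 with a median of -0.63. Of the 16050 Affy_IDs with a mean above 5, 7861 were below 0, with a median of 0.01. Several channel Affy_IDs read the same gene. With each gene read by its brightest Affy_ID, 2 of 6 had an estimate above 0 and 0 of 6 passed. All 3 adult SNI arrays lay below all 6 adult controls for 4 of the 12, compared with 2.58% of all Affy_IDs, and above them for 1, compared with 3.17%. Against sham alone and against contralateral alone 0 of 12 passed in limma, with 3 of 12 at an unadjusted p under 0.05 in each, and 0.48% and 1.03% of all Affy_IDs passed. Either count was 1 of 12 without either young SNI array, that against sham also without adult contralateral replicate 3 and that against contralateral also without adult sham replicate 2.

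**Figure D2:**
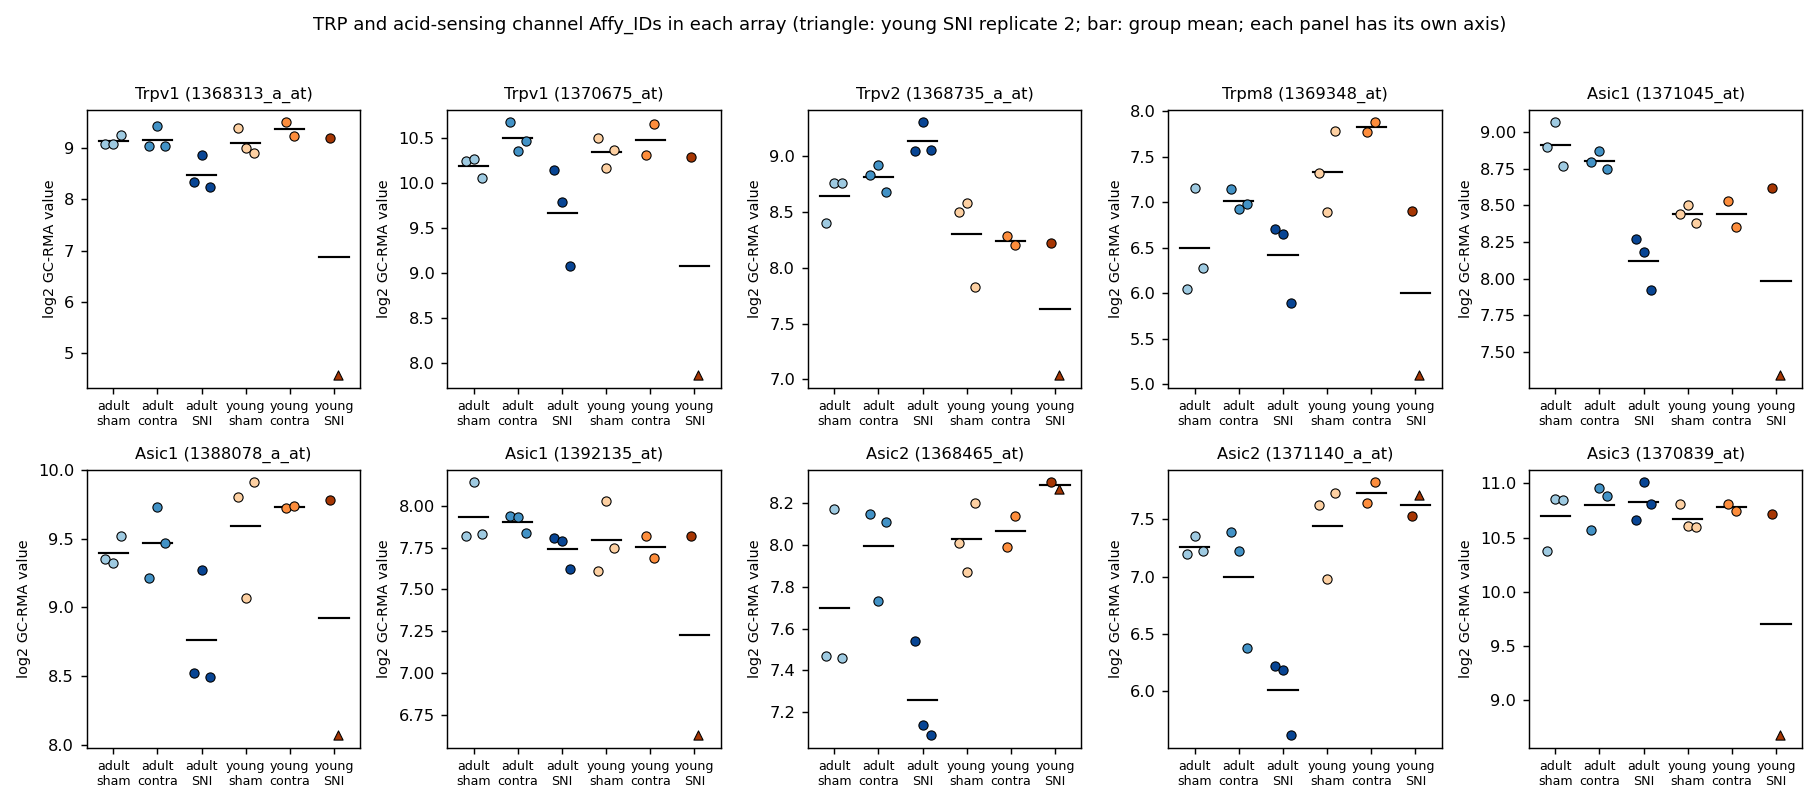
Log2 GC-RMA value (vertical axis, a scale for each panel) of the 10 brighter channel Affy_IDs in each array, by group (horizontal axis). Points are arrays, the triangle is young SNI replicate 2 and bars are group means; the 3 adult SNI points of Asic2 1371140_a_at lie at 5.62 to 6.22, below the adult controls at 6.38 to 7.39.

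Asic2 showed the largest difference. Affy_ID 1371140_a_at read 7.20, 7.35 and 7.22 in adult sham, 7.39, 7.22 and 6.38 in adult contralateral, and 6.22, 6.19 and 5.62 in adult SNI. All SNI arrays were below all controls, although contralateral replicate 3 came close to them. The log2 difference from both controls was -1.12 (SE 0.23, adjusted p = 0.0439, limma). It was -1.25 from sham (SE 0.27, adjusted p = 0.0884, or 0.043 without adult contralateral replicate 3) and -0.99 from contralateral (SE 0.27, adjusted p = 0.152). The call was close to the threshold. It was lost when adult sham replicate 1, 2 or 3 was left out (adjusted p = 0.0767, 0.103 and 0.0652), adult contralateral replicate 1 or 2 (0.0936 and 0.0971), adult SNI replicate 1, 2 or 3 (0.0503, 0.12 and 0.227), young sham replicate 1 (0.0653) or either young contralateral array (0.0683 each). Leaving out young SNI replicate 2 kept the call (adjusted p = 0.0452).

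The second Asic2 Affy_ID, 1368465_at, read 7.47, 8.17 and 7.46 in adult sham, 8.15, 7.73 and 8.11 in adult contralateral, and 7.54, 7.14 and 7.09 in adult SNI. The SNI arrays were at the bottom of the range, with SNI replicate 1 just above the 2 lower sham arrays. Its log2 difference from both controls was -0.59 (SE 0.17, adjusted p = 0.163). From contralateral alone it was -0.74 (adjusted p = 0.139, or 0.0472 without adult sham replicate 2). Both Affy_IDs of the gene thus lay below 0, and 1 of them passed.

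Asic1 gave the most uniform separation. Affy_ID 1371045_at read 8.90, 9.07 and 8.77 in adult sham, 8.80, 8.87 and 8.75 in adult contralateral, and 8.27, 8.18 and 7.92 in adult SNI. The gap between the highest SNI array and the lowest control was wider than the range within each of the 3 adult groups. The log2 difference was -0.74 (SE 0.21, 95% interval -1.19 to -0.28) with an adjusted p of 0.157. Without young SNI replicate 2, at 7.34 the lowest of all arrays for this Affy_ID, the difference was the same, the SE was 0.09 and the adjusted p was 0.00247. Leaving out young SNI replicate 1 instead is no second check, since either fit leaves 1 young SNI array, which adds nothing to the spread. With adult arrays alone the adjusted p was 0.0132 (limma). Asic1 passed against each control as well without young SNI replicate 2, with an adjusted p of 0.00753 against sham and 0.0108 against contralateral. Counts were then 1, 1 and 2 of 12 against sham, contralateral and both, compared with 0.722%, 1.38% and 1.97% of all Affy_IDs.

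The other Asic1 Affy_IDs moved less clearly. For 1388078_a_at the adult SNI arrays read 8.52, 9.27 and 8.49 and the adult controls 9.21 to 9.73, so SNI replicate 2 overlapped them while each SNI array lay below its paired contralateral array (by -0.69, -0.46 and -0.98), and the log2 difference was -0.67 (SE 0.33, adjusted p = 0.558). For 1392135_at the SNI arrays lay at 7.62 to 7.81 and the controls at 7.82 to 8.14, without overlap but with a difference of only -0.18 (SE 0.20, adjusted p = 0.817). The 3 brighter Asic1 Affy_IDs therefore shared a sign and differed in size.

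Trpv1, the capsaicin receptor, had 2 readable Affy_IDs. For 1368313_a_at the values were 9.09, 9.09 and 9.26 in adult sham, 9.04, 9.43 and 9.04 in adult contralateral, and 8.35, 8.87 and 8.24 in adult SNI. Every SNI array was below every control, with SNI replicate 2 the closest to them. The log2 difference was -0.67 (SE 0.71, adjusted p = 0.815), and without young SNI replicate 2, which read 4.57, it was -0.67 with an SE of 0.16 and an adjusted p of 0.07. For 1370675_at the values were 10.25, 10.27 and 10.06 in adult sham, 10.68, 10.36 and 10.47 in adult contralateral, and 10.15, 9.79 and 9.08 in adult SNI. Here SNI replicate 1 fell within the sham range, and SNI replicate 3 was the lowest of the 9. The difference was -0.68 (SE 0.41, adjusted p = 0.703), and without young SNI replicate 2 the adjusted p was 0.146.

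Trpv2 was the one channel whose adult SNI arrays all lay above the controls. They read 9.04, 9.30 and 9.05, against 8.40, 8.76 and 8.76 in sham and 8.83, 8.92 and 8.68 in contralateral. The gap between the highest control and the lowest SNI array was small, and the log2 difference of 0.41 (SE 0.23) had an adjusted p of 0.676, or 0.31 without young SNI replicate 2. Trpm8, the cold receptor, read 6.04, 7.16 and 6.28 in sham, 7.15, 6.92 and 6.98 in contralateral, and 6.71, 6.65 and 5.89 in SNI. Its SNI arrays overlapped sham but all lay below the contralateral arrays, in the pairs by -0.44, -0.27 and -1.09. The difference was -0.34 from both controls (SE 0.38, adjusted p = 0.817) and -0.60 from contralateral alone (adjusted p = 0.732, limma). Asic3 stayed high in all adult arrays, with 10.38 to 10.96 in controls and 10.66 to 11.01 in SNI, and differed by 0.08 (95% interval -0.64 to 0.80, adjusted p = 0.922). Without young SNI replicate 2 that interval was -0.21 to 0.36.

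Adult SNI and contralateral arrays of the same number deviated together from their group means, as paired ganglia would, and the channels were also read within pairs. SNI was lower in all 3 pairs for 9 of 12 Affy_IDs, 8 of them among the 10 brighter, compared with 33.1% of all Affy_IDs, and Trpv2 was higher in all 3, compared with 16.5%. The 9 read only Trpv1, Trpm8, Asic1 and Asic2, and Affy_IDs of the same gene on the same pairs are not independent of each other. With the pairs as a block in a fit of these 6 arrays, 0 of 12 passed in limma, with 9 of 12 at an unadjusted p under 0.05 (18.8% of all Affy_IDs), and 1.48% of all Affy_IDs passed. The smallest adjusted p were 0.0583 for Trpv1 1368313_a_at (-0.68), 0.0611 for Asic2 1371140_a_at (-0.99) and 0.0688 for Asic1 1371045_at (-0.68).

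**Figure D3:**
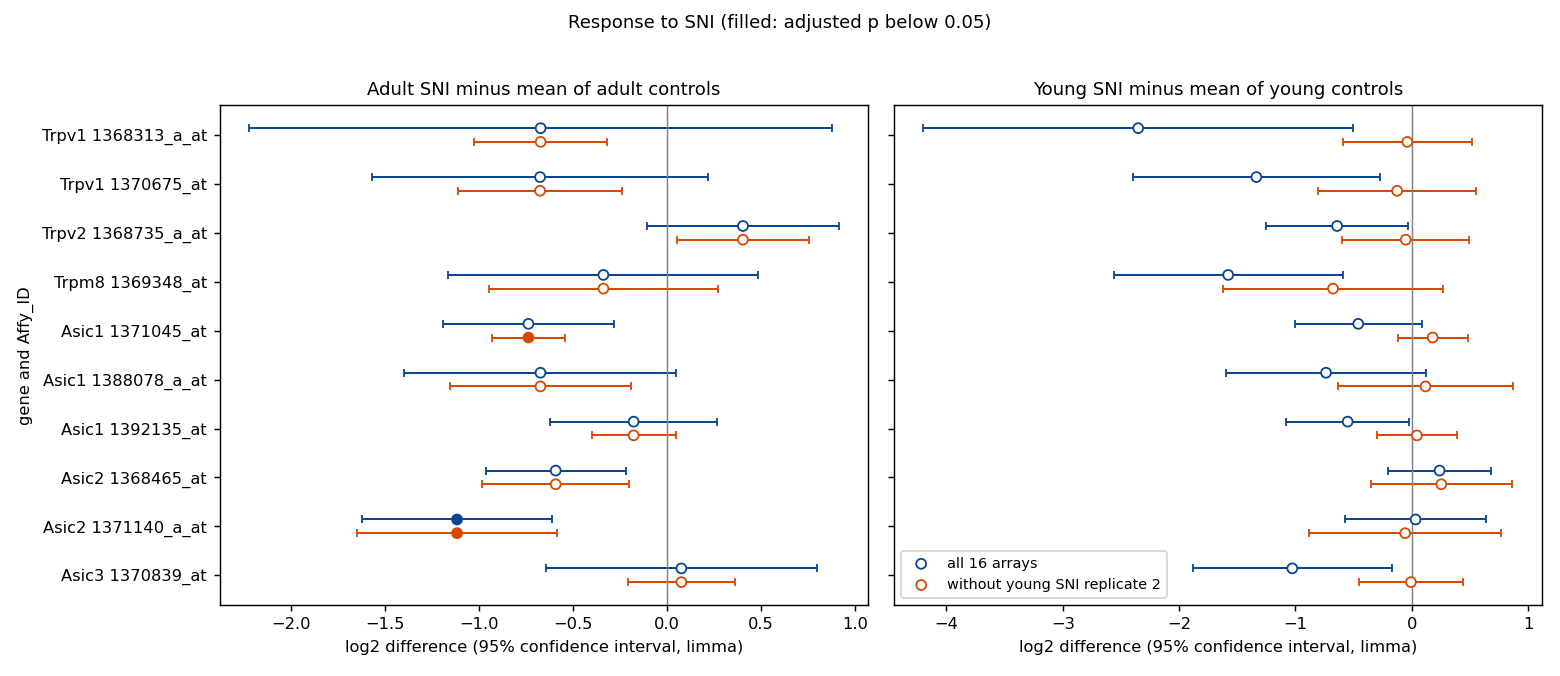
Log2 difference between SNI and the mean of both controls (horizontal axis) for the 10 brighter channel Affy_IDs (vertical axis), in adult rats (left) and young rats (right). Points are limma estimates with 95% confidence intervals, from all 16 arrays or without young SNI replicate 2, and filled points passed at an adjusted p under 0.05: Asic2 1371140_a_at in both fits and Asic1 1371045_at without that array, both in adults.

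In young ganglia no channel passed. In limma 0 of 12 Affy_IDs were called against sham, contralateral or both, compared with 0.0161%, 0.00966% and 0.0226% of all Affy_IDs. These shares are at the adjusted p and are no measure for counts at an unadjusted p. Against both controls 6 of the 12 were at an unadjusted p under 0.05 with all arrays and 0 of the 12 without young SNI replicate 2, when 0 of 12 passed and 0.171% of all Affy_IDs did. With replicate 2 as the lone young SNI array, its spread assumed to be that of the other groups, 8 of 12 passed, compared with 12.5% of all Affy_IDs. For Trpv1 1368313_a_at the young values were 9.39, 9.0 and 8.91 in sham, 9.51 and 9.24 in contralateral, and 9.20 and 4.57 in SNI. The whole difference came from the second SNI array, since the first lay within the controls. The log2 difference was accordingly -2.35 (SE 0.84, adjusted p = 0.626) with it and -0.04 (95% interval -0.59 to 0.51) without it.

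Trpv1 1370675_at behaved alike, at 10.29 and 7.87 in young SNI against 10.17 to 10.66 in controls. Asic3 read 10.72 and 8.68 in young SNI and 10.60 to 10.81 in young controls, which gave -1.03 with both arrays and -0.01 (95% interval -0.45 to 0.44) with the first alone. Asic3 and Trpv1 thus had 1 young SNI array at control level and 1 far below it. Trpm8 had 6.90 and 5.10 in young SNI, against 7.32, 6.89 and 7.78 in sham and 7.77 and 7.88 in contralateral. For this gene the first SNI array was also near the bottom of the controls, and the difference was -0.68 (SE 0.43, adjusted p = 1.0) without the second. Trpv2 read 8.22 and 7.04 in SNI and 7.83 to 8.58 in controls, a difference of -0.05 without the second array.

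The 3 brighter Asic1 Affy_IDs changed sign with that array. Against both young controls 1371045_at differed by -0.46 with it and 0.18 without it, 1388078_a_at by -0.74 and 0.12, and 1392135_at by -0.55 and 0.04, none with an adjusted p under 0.05 (limma).

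Asic2 was the exception in young SNI replicate 2. In young rats 1371140_a_at read 7.62, 6.98 and 7.73 after sham surgery, 7.64 and 7.82 on the contralateral side, and 7.53 and 7.71 after SNI, with full overlap and a log2 difference of 0.03 (95% interval -0.57 to 0.64). The other Affy_ID, 1368465_at, read 8.30 and 8.27 in young SNI, above all young controls at 7.87 to 8.20, where 1.08% of all Affy_IDs did so. Its difference was 0.24 (SE 0.20, adjusted p = 0.935).

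Whether the response itself differed between ages was tested as the adult difference minus the young one. No channel passed in limma (0 of 12, with 3 of 12 at an unadjusted p under 0.05), compared with 0.0966% of all Affy_IDs. The 3 were Asic2 1371140_a_at at -1.15 (SE 0.36, adjusted p = 0.465), Asic2 1368465_at at -0.83 (SE 0.26, adjusted p = 0.472) and Trpv2 at 1.05 (SE 0.36, adjusted p = 0.538). Without young SNI replicate 2 the closest was Asic1 1371045_at, at -0.92 (SE 0.16, adjusted p = 0.055), and 0 of 12 passed again in limma, with 3 of 12 at an unadjusted p under 0.05 and 0.287% of all Affy_IDs called. Without young SNI replicate 1 instead, 6 of 12 passed, compared with 9.96% of all Affy_IDs, all 6 with a higher value in the adult response, and Trpv2 was at an adjusted p of 0.00532. Neither Asic2 Affy_ID was among the 6 (adjusted p = 0.122 and 0.171), and Asic1 1371045_at changed sign to 0.36 (adjusted p = 0.23). A lower Asic2 or Asic1 in adult SNI was therefore not shown to be a response of adults and not of young rats.

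Injured ganglia of the 2 ages were also compared with each other. Xist was low in every adult SNI array and high in both young SNI arrays, so age and sex cannot be told apart here. Asic2 was lower and Trpv2 higher in adult SNI than in young SNI, and 3 of 12 Affy_IDs passed, compared with 2.64% of all Affy_IDs, 0.915% in the lower and 1.73% in the higher direction. Asic2 1371140_a_at fell from 7.53 and 7.71 in young SNI to 5.62 to 6.22 in adult SNI, a log2 difference of -1.61 (SE 0.30, adjusted p = 0.0222). Asic2 1368465_at differed by -1.03 (SE 0.22, adjusted p = 0.0364), with 7.09 to 7.54 in adult SNI and 8.27 to 8.30 in young SNI. Trpv2 differed by 1.5 (SE 0.30, adjusted p = 0.0302), with 9.04 to 9.30 in adult SNI and 7.04 and 8.22 in young SNI. The groups did not overlap for these 3 and overlapped for the other 9 of the 12. Over all Affy_IDs, adult SNI lay wholly below young SNI for 9.32% and wholly above for 13%.

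Without young SNI replicate 1, 8 of 12 passed, the same 3 among them, compared with 17.1% of all Affy_IDs. All 3 calls were lost without young SNI replicate 2, when 0 of 12 passed in limma, with 6 of 12 at an unadjusted p under 0.05, and 0.783% of all Affy_IDs did. The Asic2 differences were then -1.52 (adjusted p = 0.139) and -1.04 (adjusted p = 0.173), close to those with it, and that of Trpv2 was 0.91 (adjusted p = 0.189), with the remaining young array assumed to vary like the other groups. Asic2 1371140_a_at was further lost without adult SNI replicate 3 (adjusted p = 0.0646). Trpv2 was lost without adult contralateral replicate 1 or 3 (0.0522 and 0.0507) or adult SNI replicate 2 or 3 (0.0896 and 0.0677). Asic2 1368465_at was lost without adult contralateral replicate 1 or 3 (0.0556 and 0.056), adult SNI replicate 2 or 3 (0.106 and 0.101), young sham replicate 1 (0.052) or either young contralateral array (0.0537 each).

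Uninjured ganglia of the 2 ages were compared by the same test. Between adult and young controls 0 of 12 passed in limma, with 4 of 12 at an unadjusted p under 0.05, whereas 4.36% of all Affy_IDs passed. Asic1 1371045_at was the one member whose adult controls all lay above the young ones, at 8.75 to 9.07 against 8.35 to 8.53, where 3.54% of all Affy_IDs did so. Its log2 difference was 0.42 (SE 0.18, adjusted p = 0.25), and it passed without young SNI replicate 2 (SE 0.08, adjusted p = 0.0111) or without young SNI replicate 1 (the same adjusted p), when 6.63% of all Affy_IDs passed. Adult SNI at 7.92 to 8.27 lay below the young controls too. Trpm8 had the largest difference by size, -0.82 (SE 0.33, adjusted p = 0.205), with 6.04 to 7.16 in adult and 6.89 to 7.88 in young controls. Trpv2 differed by 0.45 (SE 0.20, adjusted p = 0.267) and Asic2 1371140_a_at by -0.46 (SE 0.20, adjusted p = 0.257), the other 2 at an unadjusted p under 0.05. Trpv1 differed by -0.08 and -0.07 for its 2 brighter Affy_IDs and Asic3 by 0.02.

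The uninjured side was compared with sham at each age. In limma 0 of 12 channels passed in adults and 0 of 12 in young rats, each with 0 of 12 at an unadjusted p under 0.05, and 0% of all Affy_IDs passed in either comparison. By group means Asic2 was lowest in adult SNI for both Affy_IDs, Trpv2 was highest in adult SNI, and Trpm8 was highest in young contralateral.

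Related genes were described by lists, each gene by its brightest Affy_ID. Of 24 other TRP channels 16 were measured, 6 of them with a mean above 5, and 0 passed in adult SNI against both controls in limma (1 at an unadjusted p under 0.05), with a median log2 difference of -0.06. Between adult and young controls 1 of the 16 passed, compared with 4.36% of all Affy_IDs. It was Trpc6, a cation channel opened by diacylglycerol, higher by 0.86 in adult controls (SE 0.20, adjusted p = 0.0381, limma). Trpc6 was dim, at 3.61 to 4.44 against 2.54 to 3.70. Of 8 other acid-sensing subunits and proton-sensing receptors 5 were measured, Asic4 and Asic5 among them. None of the 5 had a mean above 5, and too little signal was present for a difference to be read.

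Receptors and kinases that sensitise TRPV1, listed with the inhibitory receptors Cnr1 and Oprm1, came to 19 measured of 22. In adult SNI 0 passed in limma, with 5 at an unadjusted p under 0.05. Prkce, the protein kinase C isoform that phosphorylates TRPV1, read 9.18, 9.10 and 8.46 in sham, 9.13, 9.39 and 9.02 in contralateral, and 8.29, 8.25 and 7.43 in SNI. All SNI arrays were lower than all controls, by -1.06 (SE 0.23), at an adjusted p of 0.0505 with all arrays and 0.0377 without young SNI replicate 2. Cnr1, the cannabinoid receptor of sensory neurons, differed by -0.84 (adjusted p = 0.268, or 0.0439 without that array) the tyrosine kinase Src by 0.56 (adjusted p = 0.138) and the histamine receptor Hrh1 by 0.22 (adjusted p = 0.293).

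Proteins that bind or traffic the channels came to 17 measured of 21, with 0 called in adult SNI in limma and 3 at an unadjusted p under 0.05. Stom, a membrane protein that binds ASIC subunits, differed by 0.65 (SE 0.21, adjusted p = 0.238), the tubulin gene Tubb3 by 0.49 (adjusted p = 0.23), Gabarap by 0.36 (adjusted p = 0.361) and the synaptotagmin gene Syt9 by -1.41 (SE 0.70, adjusted p = 0.569). Pirt, a partner of TRPV1 and TRPM8, had the smallest p of this list in young SNI (-1.25, adjusted p = 0.626), and differed by -0.35 in adult SNI (adjusted p = 0.816). Other thermal, mechanical and chemical transducers came to 19 measured of 21, again with 0 called in limma and 4 at an unadjusted p under 0.05. Among them the mechanosensitive channel Piezo1 differed by 0.78 (adjusted p = 0.476), the ATP receptor P2rx2 by 0.32 (adjusted p = 0.277), Tmem150c by -0.67 (adjusted p = 0.392) and the potassium channel Kcna1 by -0.29 (adjusted p = 0.462). The sodium channel Scn11a, among the 4 of smallest p in young SNI (-1.27, adjusted p = 0.626), differed by -0.57 in adult SNI (adjusted p = 0.755, or 0.0425 without young SNI replicate 2). P2rx4, another ATP receptor, was higher by 0.65 in adult than in young controls (adjusted p = 0.0542, or 0.00766 without that array). In young SNI against both controls 0 of the 76 genes of these lists passed in limma, with 10 at an unadjusted p under 0.05.

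Marker genes of the neurons that carry the channels were read beside them. Of 14 nociceptor genes measured 0 passed in adult SNI, with a median log2 difference of -0.22 and list means of 9.46 to 9.83 in SNI against 9.56 to 10.10 in adult controls. General sensory neuron genes had list means of 12.36 to 12.71 in adult SNI and 12.40 to 12.72 in adult controls. Of these 12 genes 6 had an estimate above 0, 6 were at an unadjusted p under 0.05 and 1 passed (limma). Their near-equal list means therefore do not show that each gene was unchanged. Of 12 genes of large-diameter sensory neurons 4 had an estimate above 0, 3 were at an unadjusted p under 0.05 and 2 passed (limma). Their list means were 11.12 to 11.29 in adult SNI and 10.97 to 11.2 in adult controls. Genes that rise in injured neurons moved far more, with 15 of 20 passing, all 15 higher, and a median of 2.96. Macrophage genes were also higher, with list means of 6.39 to 6.99 in adult SNI and 4.77 to 5.66 in adult controls and 4 of 13 passing. The part of these shifts in the channel values was not tested.

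**Figure D4:**
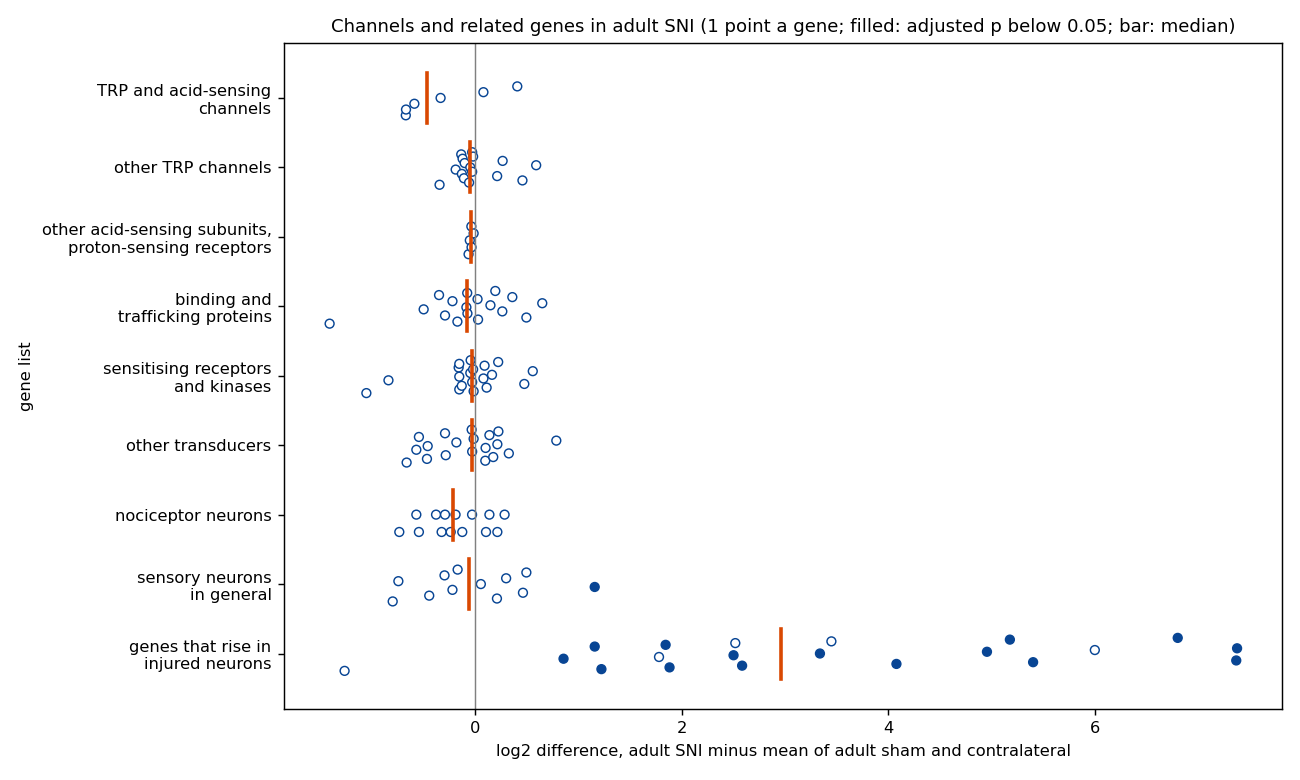
Log2 difference between adult SNI and the mean of both adult controls (horizontal axis) for the genes of 9 lists (vertical axis). Each point is a gene by its brightest Affy_ID, filled where the adjusted p was under 0.05, and the bar is the list's median: -0.46 for the channels and 2.96 for genes that rise in injured neurons. Asic2 is shown by 1368465_at, so 1371140_a_at, which passed, is not plotted, and 0 of the 6 channel points are filled.

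Genes whose values ran most like a channel's over the 15 arrays other than young SNI replicate 2 were found among 12709 other genes. These are descriptions of arrays that share the SNI groups, without a test. Trpv1 1368313_a_at was most like Isl2, a homeobox gene of sensory neurons (Pearson r = 0.952), and Isl2 was also the most like Asic1 1388078_a_at (0.946). Trpv1 1370675_at was most like Adam22 (0.969), and Trpv2 like the small heat shock protein gene Hspb8 (0.96). Asic1 1371045_at was nearest to Frmpd1 (0.928). Asic2 1371140_a_at was nearest to Fam81a (0.928), and Asic2 1368465_at to Etv1, a transcription factor of proprioceptive neurons (0.927). With all 16 arrays these values were 0.98 for Isl2 and Trpv1, 0.971 for Hspb8, 0.946 for Frmpd1, 0.932 for Fam81a, 0.841 for Adam22 and 0.484 for Etv1.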

How the data were processed

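L4/L5 DRG transcripts were measured on 16 arrays in 6 groups. Per the labels, the authors hybridised biotin-labelled RNA and applied GC-RMA, and the deposited values are log2 values per Affy_ID, with array medians of 5.13 to 5.48. Which versions of GC-RMA and limma the authors ran is not given in these sources. Arrays that the authors removed as outliers were not analysed here. Precision is set by the number of arrays, since no reads were counted.

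The 57 control Affy_IDs were dropped and 31042 tested, of which 20826 had a symbol of 1 gene, 436 had several and 9780 had none. Comparing symbols with the RefSeq gene table of GRCr8 changed 0 of them. One model with 6 group means was fitted to all arrays with limma 3.58.1 in R 4.3.3, with Benjamini-Hochberg adjustment inside each of 11 comparisons and a threshold of 0.05. All adjusted p and intervals in the text are from limma. Shares of all Affy_IDs that passed are at the adjusted p. Counts at an unadjusted p are given without a share of all Affy_IDs, except in the paired fit, and no excess is read from them. No filter was used. The channels, the lists, the naming rule and the alternatives were chosen with earlier results of these data known. Named genes were all Affy_IDs of the channels, and of each related list up to 4 genes with the smallest p in adult SNI, in young SNI or between control ages, and those that passed. The genes most alike were those with the highest Pearson r among genes with a mean above 5.

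Adult SNI and adult contralateral arrays of the same number deviated together from their group means (correlations across Affy_IDs of 0.449, 0.445 and 0.362), as ganglia of the same rats would be paired, and the numbers were fitted as a block in an alternative. Other alternatives were leaving out each array, a fit per age, an intensity trend, a filter (log2 above 4 in at least 2 arrays), array weights, quantile normalization and adjustment over all comparisons. In simulated data with 31042 Affy_IDs for adult SNI against both controls, 92 of 100 changes of 2 log2 units and 69 of 100 of 1 unit were recovered, with 18 unchanged Affy_IDs called. The changed Affy_IDs were drawn at random, with the same spread in every group and no pairs, age difference or deviant array. The rates are therefore not those for the channels. Python 3.11.15, pandas 2.3.3 and matplotlib 3.10.9 made tables and figures.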

Additional observations from a re-analysis of the deposited data

How the results depend on the processing

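For the 39 log2 differences of channel Affy_IDs printed or plotted here, 886 values were recomputed under alternatives, of which 810 kept their direction and their side of the threshold and 13 changed sign, all 13 on leaving out 1 array. Which differences are given was settled after the alternatives had been computed. Over all 70 differences of the 10 brighter Affy_IDs, printed or not, 1481 of 1590 values kept both and 36 changed sign, 31 of them on leaving out 1 array. The count of channel Affy_IDs past the threshold in adult SNI against both controls was 1 and became 2 with array weights and 0 with quantile normalization, the replicate block or adjustment over all comparisons. In adult SNI against sham it was 0 and became 1 with each age on its own or the filter. Against contralateral it was 0 and became 1 with each age on its own and 2 with array weights, and it remained 0 with the replicate block. Adult SNI against young SNI gave 3, 0 with array weights and 1 with adjustment over all comparisons. Leaving out each array in turn gave counts of 0 to 1 for adult SNI against sham and against contralateral, 0 to 2 against both, 0 to 8 for young SNI against sham, contralateral or both, 0 to 6 for the difference in response, 0 to 8 for adult SNI against young SNI and 0 to 1 between control ages. The counts of 8 and 6 were without young SNI replicate 1. The differences that changed sign ranged from -0.155 to 0.02 for Trpv1 1370675_at between control ages, -0.917 to 0.363 for Asic1 1371045_at in the difference in response, -1.1 to 0.18, -1.592 to 0.118 and -1.146 to 0.044 for Asic1 1371045_at, 1388078_a_at and 1392135_at in young SNI against both controls, -0.083 to 0.123 for Asic2 1371140_a_at there, -0.015 to 0.16 for Asic3 in adult SNI against both controls and -0.018 to 0.103 for Asic3 between control ages. The replicate block ended the calls of Asic2 1371140_a_at in adult SNI against both controls (-1.12, adjusted p = 0.054) and of Asic2 1368465_at in adult SNI against young SNI (-1.12, adjusted p = 0.093), and it ended or made no other call among these 39. Only adult SNI and adult contralateral arrays are paired by their numbers. Sham and young arrays share a number and no more (Xist read 2.35 in young contralateral replicate 1 and 11.84 in young SNI replicate 1), so neither loss is read as a weaker difference. The 2 dim Affy_IDs had too little signal over background for a difference to be read.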
